A study of Mus musculus with 4 samples.

Results

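Mouse DFAT cells in which Mkl1 was knocked down were compared with DFAT cells treated with the ROCK inhibitor Y-27632, over every gene read by a probe set with a single gene symbol. The members were the 2 treated arrays of the 4 arrays in the series, and 11600 genes of the 18193 on the array whose highest of the 4 signals reached the median of all values, 5.69 on the log2 scale. DFAT cells are the fibroblast-like cells that form when mature fat cells lose their lipid in culture. The 4 groups received the solvent DMSO, Y-27632, Control siRNA or Mkl1 siRNA, and total RNA was hybridised as biotin-labelled cRNA, with 1 array a group. The labels give all groups the same medium with serum and state no dose, duration, mouse strain or siRNA sequence. There are no replicates, so differences are given without a p-value, and precision is limited by having 1 array a group. Expression values are log2 RMA signals, so a difference of 1 is 2-fold.

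ROCK, the kinase acting downstream of the GTPase RhoA, promotes actomyosin contraction and the assembly of actin filaments. Monomeric actin holds the coactivator MRTF-A, the product of Mkl1 (present symbol Mrtfa), outside the nucleus, and when actin polymerises MRTF-A enters the nucleus and activates contractile and cytoskeletal genes with the transcription factor SRF. The inhibitor therefore acts at the top of this route and the siRNA on a coactivator near its end, and in preadipocytes the route is known for restraining fat cell formation.

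A pair of measures was used. The direct difference was the Mkl1 siRNA array minus the Y-27632 array. These arrays also differ in transfection and solvent, which in the direct difference cannot be told apart from the treatments. The difference of differences was (Mkl1 siRNA minus Control siRNA) minus (Y-27632 minus DMSO), which equals the direct difference less the difference between the control arrays. Both measures contain both treated arrays, so a gene that differs by both is not counted on independent data. A level in 2 groups of bulk RNA cannot tell fewer cells of a type from less RNA per cell.

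The siRNA target was read by 1 probe set. Mrtfa stood at 8.32 on the DMSO array, 8.18 on the Y-27632 array, 8.55 on the Control siRNA array and 7.70 on the Mkl1 siRNA array, the order in which the values of every gene are given here. The Mkl1 siRNA array was the lowest, with a direct difference of -0.48 and a difference of differences of -0.72. Mrtfb, the related coactivator, differed by 0.55 and 0.27, Srf by -0.42 and -0.28, and Rock1 by 0.18 and 0.11. Rock2 was not analysed here. Of 8 fibroblast markers, 8 reached the filter value on the DMSO and Y-27632 arrays and 7 on both siRNA arrays, where lumican (Lum) did not. Of 7 smooth muscle and pericyte markers, 5 reached it on every array. Markers of other cell types reached it in 1 of 4 for osteoblasts, 2 of 5 for chondrocytes, 2 of 6 for skeletal myoblasts, 3 of 9 for macrophages and leukocytes and 1 of 5 for epithelium on every array, and in 1 or 2 of 8 for endothelium. In the same order of arrays, the summed level of the macrophage list was 44.7, 43.9, 45.6 and 44.6. That of the fibroblast list was 102.9, 105.8, 96.9 and 95.1, so Control siRNA was already below DMSO. The 18S ribosomal control probe sets differed by a median of 0.19 directly and -0.01 by the difference of differences.

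Relative to Y-27632, more genes were lower than higher with Mkl1 siRNA. The direct difference was at least 2-fold for 144 genes higher (1.24% of 11600) and 319 genes lower (2.75%), 3.99% in either direction. The difference of differences was at least 2-fold for 101 higher (0.871%) and 257 lower (2.22%), 3.09% in either direction. By both measures in the same direction, 51 genes were higher (0.44%) and 153 lower (1.32%), 1.76% in all. The median over all genes was 0.00 for the direct difference and 0.01 for the difference of differences, where RMA, which equalises the arrays, holds them. The control arrays, of which 1 was transfected and 1 received solvent, differed from each other by at least 2-fold at 237 genes (2.04%), Control siRNA being higher at 111 (0.957%) and lower at 126 (1.09%). Where genes had several probe sets, all of them pointed the same way in 64 of 84 lower genes and 19 of 24 higher genes. The probe set that made the call is among them, so part of this agreement was fixed in advance.

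Against their own controls, 208 genes were at least 2-fold higher (1.79%) and 202 lower (1.74%) with Mkl1 siRNA, 3.53% in either direction. With Y-27632, 147 were higher (1.27%) and 26 lower (0.224%), 1.49% in either direction. Of the 153 lower genes, 77 were at least 2-fold below Control siRNA on the Mkl1 siRNA array while Y-27632 was under 2-fold above DMSO. A further 25 were at least 2-fold above DMSO with Y-27632 while Mkl1 siRNA was under 2-fold below its control, 11 passed both limits, and 40 passed neither. Of the 51 higher genes, 46 were at least 2-fold above Control siRNA with Mkl1 siRNA. None was at least 2-fold below DMSO with Y-27632, and 5 passed neither limit. Control siRNA was itself at least 2-fold below DMSO in 20 of the 153 lower genes. It was at least 2-fold above DMSO in 7 of the 51 higher genes.

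**Figure D1:**
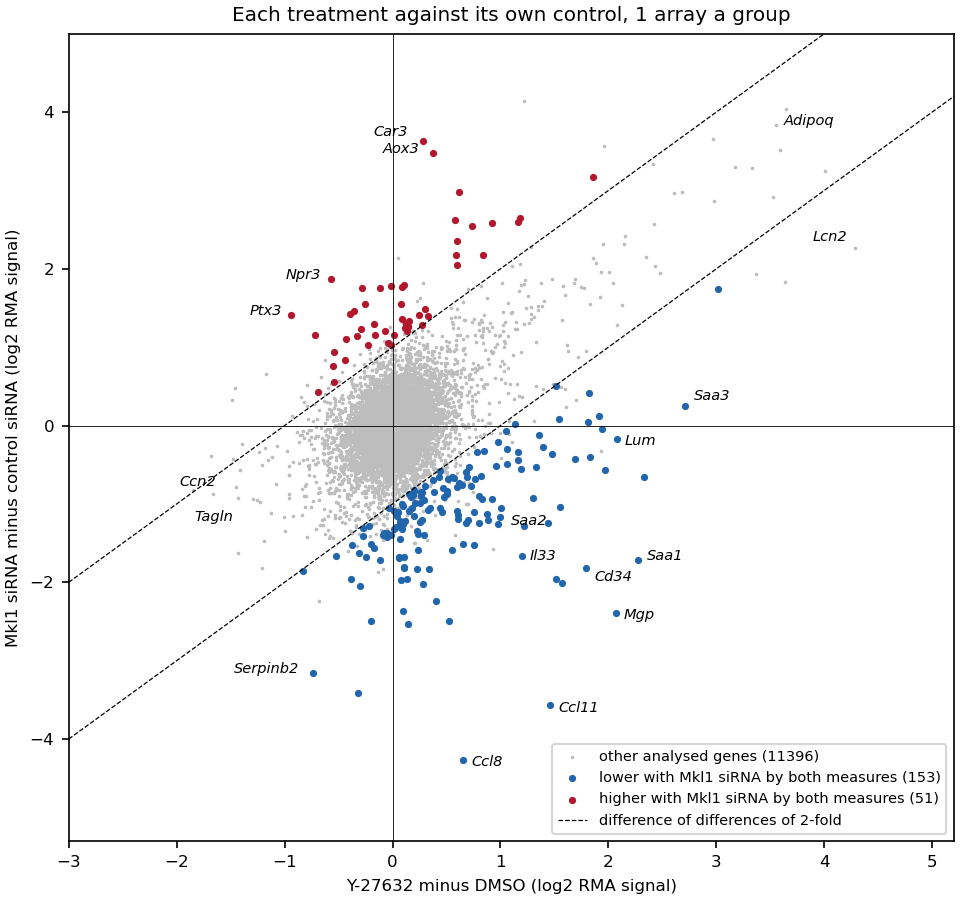
Each analysed gene is a point, with Y-27632 minus DMSO on the x axis and Mkl1 siRNA minus Control siRNA on the y axis, both in log2 RMA signal, and dashed lines mark a difference of differences of 2-fold. Blue points are the 153 genes lower and red points the 51 genes higher with Mkl1 siRNA by both measures; Saa1, Mgp, Cd34, Il33 and Ccl11 lie to the right of 0 and below 0, and Adipoq lies high on both axes between the lines.

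Acute phase and inflammatory genes held the widest spread between the treatments. Serum amyloid A1 (Saa1), a secreted apolipoprotein of the acute phase response, stood at 6.30, 8.57, 6.32 and 4.60. It was high with the inhibitor and low with the siRNA around control arrays that nearly matched, with a direct difference of -3.97 and a difference of differences of -4.00, although the Mkl1 siRNA array was below the filter value. Its neighbour Saa2 stood at 5.85, 6.85, 5.96 and 4.91, the same order of arrays with a smaller spread (-1.95 and -2.06). Saa1 and Saa2 are near-identical, their probe sets may read both genes, and how the signal splits between them is uncertain. Saa3, the form made by fat and inflamed tissue, stood at 9.24, 11.95, 8.91 and 9.16, so it was high with Y-27632 and about level with its control with Mkl1 siRNA (-2.79 and -2.47). Il33, an alarmin of the interleukin 1 family, stood at 10.27, 11.46, 9.09 and 7.42 (-4.04 and -2.86). Ptx3, a long pentraxin that binds microbes and matrix, went the other way at 10.83, 9.89, 10.28 and 11.69, with the Mkl1 siRNA array 3.46-fold above the Y-27632 array (1.79 and 2.34). Another Ptx3 probe set differed by 0.60 and 1.08, under 2-fold directly.

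The promoter windows of these genes are shown because 11 of the 12 acute phase genes with a window share a sequence word that the choice of genes did not use. The windows run from 250 bases before to 50 after the start in the RefSeq table (GRCm38.p6) and are printed in the direction of the gene. Capitals mark matches to the C/EBP word TTGCNNAA on either strand. The windows lie at chr7:46742931-46743230, minus strand (Saa1), chr7:46715627-46715926, minus strand (Saa3) and chr3:66219637-66219936, plus strand (Ptx3).
Saa1: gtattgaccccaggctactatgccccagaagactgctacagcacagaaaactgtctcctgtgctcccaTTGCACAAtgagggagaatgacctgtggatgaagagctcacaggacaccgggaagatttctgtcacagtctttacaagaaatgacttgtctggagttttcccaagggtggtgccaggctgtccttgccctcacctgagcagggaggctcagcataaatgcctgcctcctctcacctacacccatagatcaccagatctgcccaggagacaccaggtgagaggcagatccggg
Saa3: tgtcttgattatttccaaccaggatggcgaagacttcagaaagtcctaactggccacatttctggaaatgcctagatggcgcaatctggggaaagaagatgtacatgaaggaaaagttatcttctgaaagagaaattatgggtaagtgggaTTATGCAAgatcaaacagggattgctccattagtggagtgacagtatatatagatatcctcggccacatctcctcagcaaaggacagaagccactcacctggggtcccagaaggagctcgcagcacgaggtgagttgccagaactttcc
Ptx3: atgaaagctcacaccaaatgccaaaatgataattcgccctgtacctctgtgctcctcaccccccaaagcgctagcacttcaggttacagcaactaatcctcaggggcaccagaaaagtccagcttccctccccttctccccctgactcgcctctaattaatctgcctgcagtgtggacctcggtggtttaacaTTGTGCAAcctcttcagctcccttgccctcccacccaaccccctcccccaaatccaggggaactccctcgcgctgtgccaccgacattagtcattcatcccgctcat
The match began 182 bases before the start in Saa1, 99 in Saa3 and 57 in Ptx3, and overlapped no match of the other motifs searched. The Saa2 window was 95.3% identical to that of Saa1 over 301 aligned columns and held the same word, while Saa3 was 50.9% identical to Saa1. The word occurred in 11 of the 12 acute phase genes with a window (91.7%), against 9.76% of the 9356 analysed genes with a window. It was present in Saa1, Saa3 and Il33, which were lower, in Ptx3, which was higher, and in Lcn2, whose treated arrays nearly matched. A match describes the letters in the window and no binding was measured.

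Over the 15 analysed genes of the acute phase list, the median direct difference was -0.06 and the median difference of differences -0.93. By the direct difference 3 genes were at least 2-fold higher and 5 lower, against 1.24% and 2.75% of all genes. By the difference of differences 2 were higher and 7 lower, against 0.871% and 2.22%. The direct median took the other sign, 0.14, when cross-binding probe sets (those whose names mark several possible transcripts) were left out, and the median difference of differences lay between -2.01 and -0.12 over the alternatives. Lipocalin 2 (Lcn2), which binds bacterial siderophores, shows how the measures part, at 4.11, 8.39, 5.94 and 8.21. Both treated arrays were high and nearly level, and the difference of differences of -2.01 came with a Control siRNA array 1.82 above DMSO. Haptoglobin (Hp), the haemoglobin scavenger, stood at 7.0, 10.64, 9.75 and 11.58 (0.94 and -1.80), and Il1rn, the interleukin 1 receptor antagonist, at 5.39, 7.32, 8.78 and 8.46 (1.14 and -2.25). For both, the direct difference and the difference of differences had opposite signs.

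**Figure D2:**
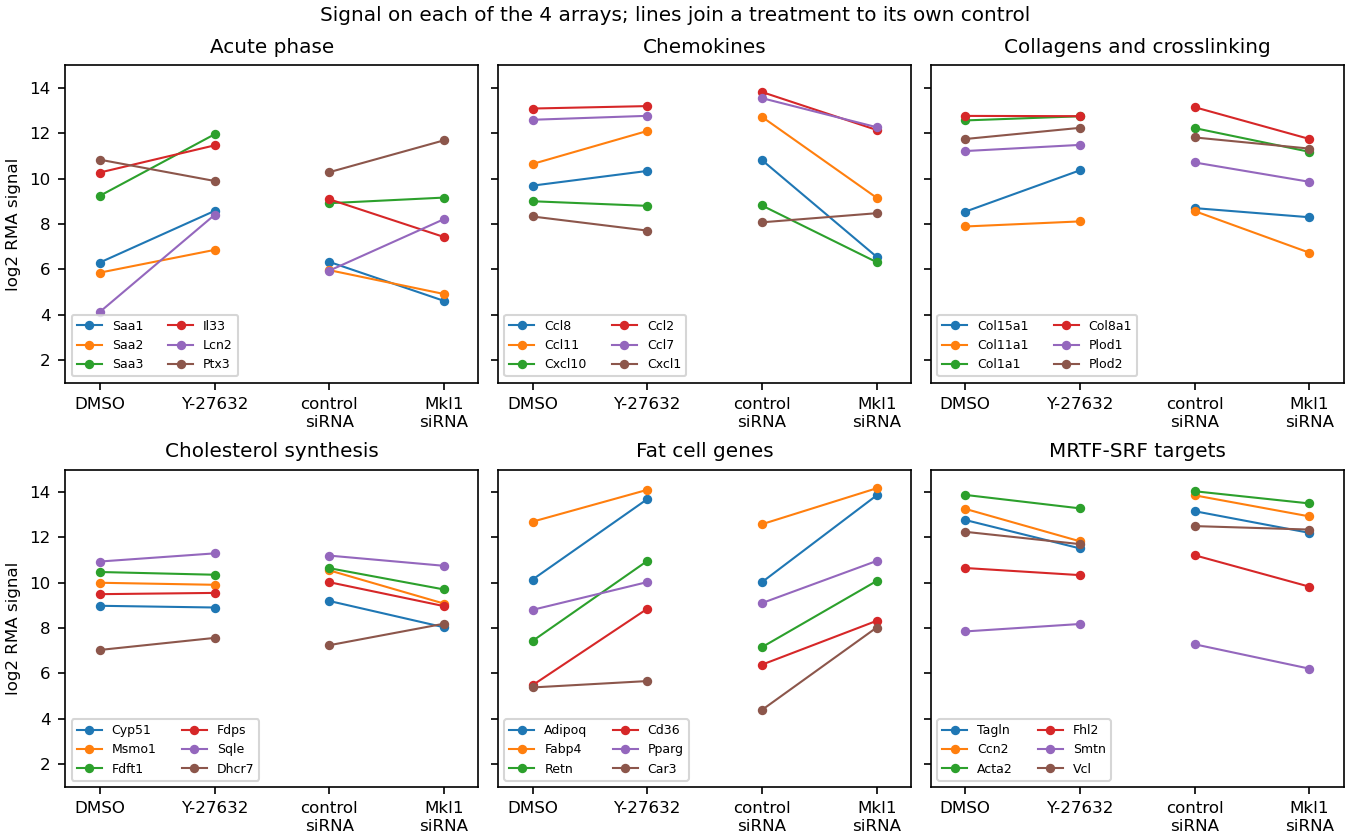
Log2 RMA signal (y axis) of 6 genes in each of 6 groups on the 4 arrays (x axis), with lines joining each treatment to its own control. Saa1 and Ccl11 slope up with Y-27632 and down with Mkl1 siRNA, Adipoq and Fabp4 slope up with both, and Tagln and Ccn2 slope down with both.

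Chemokines, the secreted proteins that attract leukocytes, included the lowest differences of differences of all named genes. Ccl11 (eotaxin), which attracts eosinophils, stood at 10.64, 12.10, 12.72 and 9.15. The Mkl1 siRNA array was the lowest and the Control siRNA array the highest, with a direct difference of -2.95 and a difference of differences of -5.03. Ccl8, a monocyte attractant, stood at 9.69, 10.34, 10.82 and 6.55, 13.8-fold lower with the siRNA than with the inhibitor (-3.79 and -4.92). Cxcl10, which is induced by interferon and attracts T cells, stood at 9.0, 8.80, 8.81 and 6.31. Its first 3 arrays were nearly level and the Mkl1 siRNA array alone was low (-2.48 and -2.30). Ccl2, the main monocyte attractant of stromal cells, stood at 13.09, 13.20, 13.82 and 12.15 (-1.05 and -1.78). Cxcl1, which attracts neutrophils, was not in step with them, at 8.33, 7.70, 8.07 and 8.47 (0.77 and 1.02). Its 3 probe sets ran from 0.77 to 2.40 directly and from 1.02 to 2.27 by the difference of differences. At least 2-fold, 1.24% of all genes were higher and 2.75% lower directly, and 0.871% and 2.22% by the difference of differences. Of 14 analysed chemokines, 1 was at least 2-fold higher and 5 lower by each measure. The median was -0.68 directly and -0.46 by the difference of differences, and when all 21 chemokines were kept, the dim ones included, it was 0.09 and -0.02. Of the markers of macrophages and leukocytes, 3 of 9 reached the filter value on every array.

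Collagens and the enzymes that modify them were lower as a group with Mkl1 siRNA. The fibroblast markers, some of which are collagens, were below 0 in 6 of 8 directly and 7 of 8 by the difference of differences, and their part in this result was not tested. Of 25 genes in the collagen list, 20 were below 0 directly and 22 by the difference of differences, with medians of -0.71 and -0.67, against 49.7% and 49.2% of all genes below 0. At least 2-fold, 1 was higher and 5 lower directly, against 1.24% and 2.75% of all genes. By the difference of differences none was higher and 5 were lower, against 0.871% and 2.22%. Col1a1, the major chain of type I collagen, stood at 12.57, 12.75, 12.23 and 11.18, with the Mkl1 siRNA array lowest and 2.96-fold below Y-27632 (-1.57 and -1.23). Its partner chain Col1a2 stood at 14.43, 14.39, 14.40 and 14.09, near the top of the scale, and differed by only -0.30 and -0.26. Another Col1a2 probe set differed by -1.36. Col11a1, a minor fibril chain, stood at 7.89, 8.11, 8.57 and 6.73 (-1.38 and -2.06), and Col8a1, a short-chain network collagen, at 12.77, 12.75, 13.15 and 11.75 (-1.01 and -1.39). In these genes the siRNA array was low and Y-27632 close to DMSO. Col15a1, of the basement membrane zone, had the other pattern at 8.54, 10.36, 8.70 and 8.29, high with Y-27632 and near control with the siRNA (-2.07 and -2.23). Plod1, a lysyl hydroxylase of collagen, differed by -1.63 and -1.12, but its probe sets disagreed and their mean differed by -0.87 and -0.64. Col12a1, a fibril-associated chain, was the 1 gene of the list higher directly, at 10.29, 10.46, 11.92 and 12.12 (1.66), and it differed by 0.03 once the control arrays were taken into account.

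The other matrix genes lay nearer to 0 in their medians and held large single differences. Of 25 proteoglycans and glycoproteins, 15 were below 0 directly and 19 by the difference of differences, with medians of -0.12 and -0.25. Against Control siRNA, 21 were below 0 with Mkl1 siRNA, where 49.8% of all genes were. At the 2-fold limit, none was higher, 6 were lower directly and 3 were lower by the difference of differences. Of all genes, 2.75% and 2.22% were lower. Lum, a small leucine-rich proteoglycan of collagen fibrils, stood at 9.36, 11.43, 5.08 and 4.91. Both siRNA arrays were below the filter value and both others well above it, which gave the lowest direct difference of the list, -6.52, and a difference of differences of -2.24. Mgp (matrix Gla protein), an inhibitor of calcification, stood at 9.76, 11.82, 12.56 and 10.17 (-1.66 and -4.46), with the Y-27632 and Control siRNA arrays high. Efemp1, a fibulin, stood at 6.76, 6.88, 6.17 and 4.21 and was low on the Mkl1 siRNA array alone (-2.67 and -2.09). Tenascin C (Tnc), a glycoprotein of healing and stretched tissue, stood at 11.36, 10.98, 11.14 and 9.77 (-1.21 and -0.99).

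Matrix proteases and their inhibitors had medians of -0.64 and -0.62 over 19 genes. Directly, none was at least 2-fold higher and 7 were lower, where 1.24% and 2.75% of all genes were. By the difference of differences 1 was higher and 5 lower, against 0.871% and 2.22%. Serpinb2 (plasminogen activator inhibitor 2) stood at 10.10, 9.36, 9.09 and 5.93, the Mkl1 siRNA array being 10.8-fold below Y-27632 (-3.43 and -2.41). Timp3, a matrix-bound inhibitor of metalloproteinases, stood at 11.72, 11.82, 12.18 and 10.37 (-1.45 and -1.91), lower with the siRNA by all 4 of its probe sets. Plau (urokinase), which activates plasminogen, stood at 9.57, 10.21, 9.0 and 8.24 (-1.98 and -1.41). Protease and inhibitor genes were thus both among the lower members.

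Surface and signalling genes of stromal cells were among the genes on opposite sides of their controls. Cd34, a sialomucin of stromal and vascular progenitors, stood at 4.57, 6.36, 5.36 and 3.53, above the filter value only with Y-27632 (-2.83 and -3.62). It was analysed only through that array, and both siRNA arrays were below the filter value. Pi16, a marker of adventitial progenitors, stood at 6.60, 8.29, 5.90 and 5.47 (-2.82 and -2.12), although another of its probe sets differed by -0.01. Mme (neprilysin, a cell-surface peptidase) stood at 6.78, 7.31, 7.92 and 5.43, low on the Mkl1 siRNA array (-1.88 and -3.02). Among 13 analysed stromal markers these were the 3 at least 2-fold lower by each measure, and none was higher. Of all genes, 2.75% were lower directly and 2.22% by the difference of differences. The medians of the 13 markers were -0.08 and -0.39. The endothelial markers, a cell type that also carries Cd34, reached the filter value in at most 2 of 8. Igf1, the growth factor made by stromal and fat cells, stood at 9.32, 11.23, 9.41 and 9.53, high with Y-27632 only (-1.70 and -1.79). Acpp, an acid phosphatase, stood at 9.18, 10.69, 9.66 and 7.70 (-3.0 and -3.48), and all 3 of its probe sets were lower by at least 2.61 on the log2 scale directly. F13a1, the coagulation factor that crosslinks fibrin, stood at 6.33, 7.90, 7.50 and 5.49 (-2.41 and -3.58).

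Acpp, F13a1, Cd34, Mgp, Saa1, Saa2, Il33 and Ccl11 belong to the 11 genes that were at least 2-fold from their own control in opposite directions, always higher with Y-27632 and lower with Mkl1 siRNA. The other 3 were Sema7a, a membrane-anchored semaphorin, at 8.58, 10.02, 9.31 and 8.06 (-1.96 and -2.69), the growth-induced zinc finger factor Egr2, at 7.84, 9.39, 8.84 and 7.81 (-1.58 and -2.58), and the lectin-domain receptor Clec14a, at 6.48, 7.70, 6.61 and 5.33 (-2.37 and -2.50). Of all 11600 genes, 0 went the opposite way at that size, a class that few genes could enter. With Y-27632, 26 genes (0.224%) were at least 2-fold lower and 147 (1.27%) higher. Cd34 was analysed only through its Y-27632 array. Among the remaining genes lowest by both measures, Itih5, which binds hyaluronan in the matrix, stood at 6.63, 8.96, 5.02 and 4.36 (-4.60 and -2.99). The fibrinogen-like protein Fgl2 stood at 9.0, 9.40, 7.60 and 5.36 (-4.04 and -2.64). Rgs13, a regulator of G protein signalling, stood at 5.93, 7.89, 2.98 and 2.41 (-5.48 and -2.54). Its siRNA arrays lie near the floor of the scale. Control siRNA minus DMSO was -1.61 for Itih5, -1.40 for Fgl2 and -2.94 for Rgs13.

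Of the 12 genes highest with Mkl1 siRNA by both measures, 6 reached the filter value on the Mkl1 siRNA array alone, namely Car3, Aox3, Olr1, Grhl1, Fbln7 and Clec4d, so their levels on the other arrays are dim and carry no order. Car3, a carbonic anhydrase abundant in mature fat, stood at 5.38, 5.66, 4.39 and 8.03, so only the Mkl1 siRNA array was high (2.36 and 3.35). Its 4 probe sets ran from -0.01 to 2.36 directly. Aox3, an aldehyde oxidase, stood at 5.05, 5.42, 4.92 and 8.40 (2.98 and 3.10). Olr1, a scavenger receptor for oxidised lipoprotein, stood at 3.20, 3.78, 5.46 and 8.08 (4.30 and 2.05). Map3k5 (ASK1), a stress-activated kinase, stood at 5.98, 6.72, 7.33 and 9.89 (3.16 and 1.81) and was higher by both of its probe sets. Npr3, the clearance receptor for natriuretic peptides, stood at 7.89, 7.32, 7.40 and 9.27 (1.96 and 2.44). The small GTPase gene Rasl11a differed by 2.70 and 2.03, the transcription factor Grhl1 by 2.08 and 1.76, Fbln7, a fibulin, by 1.72 and 1.82, and Clec4d, a C-type lectin receptor, by 1.71 and 1.68. Dixdc1 and Tmem158 completed the 12 highest with 1.91 and 1.87 and with 1.95 and 1.81, but the mean of their probe sets was under 2-fold by both measures. Gsta3, a glutathione transferase, stood at 4.65, 5.49, 6.16 and 8.34 (2.85 and 1.34), and Gclc, the rate-limiting enzyme of glutathione synthesis, at 9.25, 9.41, 9.62 and 10.59 (1.18 and 0.82). Of 19 antioxidant genes, 3 were at least 2-fold higher and 1 lower directly, where 1.24% and 2.75% of all genes were. By the difference of differences 1 went each way, against 0.871% and 2.22%. The medians of the 19 genes were 0.46 and 0.10.

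The fat cell genes differed far less between the treatments than from their controls. Over 19 mature fat cell genes the median was 1.93 above Control siRNA with Mkl1 siRNA and 1.93 above DMSO with Y-27632, while the direct median was 0.08 and the median difference of differences 0.14. Adiponectin (Adipoq) stood at 10.14, 13.69, 10.03 and 13.86, level between treatments to within 0.17 directly. Fabp4, the fatty acid carrier of fat cells, stood at 12.70, 14.10, 12.59 and 14.17 (0.07 and 0.18). Without cross-binding probe sets its difference of differences was 1.11. Pparg, the master nuclear receptor of adipogenesis, stood at 8.81, 10.03, 9.11 and 10.96 (0.93 and 0.63), and Cebpa, its partner factor, differed by 0.92 and 0.35. Both regulators were highest on the Mkl1 siRNA array without reaching 2-fold. Cd36, the fatty acid translocase, stood at 5.48, 8.85, 6.39 and 8.32 (-0.53 and -1.44), and Gpat3, a glycerol-phosphate acyltransferase, at 6.82, 8.78, 5.7 and 9.26 (0.49 and 1.61). Apart from Car3, no gene of the list was at least 2-fold different directly. Across the whole array, 82 genes were at least 2-fold above their own control with both treatments. Of these, 70 were under 2-fold apart directly, 11 were higher and 1 was lower with Mkl1 siRNA, and the median direct difference was 0.29. Over all 11600 genes, 1.24% were higher and 2.75% lower directly at that size. The 82 genes were picked on the same treated arrays that the direct difference compares. Their shares therefore cannot be set against those of all genes.

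Targets of MRTF-A and SRF, the arm both treatments act on, showed no shift between them. Over 32 genes the median was -0.08 directly and -0.06 by the difference of differences, with 1 gene at least 2-fold higher and 1 lower directly and none higher and 2 lower by the difference of differences. Without cross-binding probe sets, 27 genes were left and both medians changed sign, to 0.10 and 0.19. Against their own controls, 29 of the 32 were below 0 with Mkl1 siRNA and 30 with Y-27632, where 49.8% and 49.4% of all genes were. Tagln (SM22), an actin-binding protein of smooth muscle, stood at 12.77, 11.52, 13.16 and 12.20 (0.69 and 0.30). Ccn2, the matrix-associated growth factor also driven by YAP, stood at 13.26, 11.83, 13.86 and 12.93 (1.10 and 0.50). Acta2, smooth muscle actin, differed by 0.22 and 0.06, and Actb, cytoplasmic actin, by 0.13 and 0.10. Smoothelin (Smtn), a contractile smooth muscle protein, was the gene lower by both measures, at 7.85, 8.18, 7.29 and 6.21 (-1.97 and -1.40). The LIM protein Fhl2 stood at 10.65, 10.34, 11.22 and 9.83 (-0.51 and -1.07). The 20 YAP and TAZ targets had medians of -0.20 and -0.18, which became 0.03 by both measures when probe sets were averaged. The lowest of them directly was Ankrd1, a stretch-responsive nuclear repeat protein, at 11.20, 9.99, 10.63 and 8.80 (-1.19 and -0.62).

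Fhl2, lower by the difference of differences, has a CArG box, the binding word of SRF, in both of its windows, 96 bases before the start in the upstream window and 31 in the downstream window. The downstream window is shown. It lies at chr1:43163912-43164211, minus strand (GRCm38.p6), and capitals mark the match.
Fhl2: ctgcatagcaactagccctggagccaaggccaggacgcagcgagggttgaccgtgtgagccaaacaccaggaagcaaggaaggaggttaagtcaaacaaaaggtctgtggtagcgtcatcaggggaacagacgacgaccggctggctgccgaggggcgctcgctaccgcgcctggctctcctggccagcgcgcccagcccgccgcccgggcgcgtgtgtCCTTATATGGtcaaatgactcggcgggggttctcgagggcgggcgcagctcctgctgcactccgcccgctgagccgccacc
A CArG box on either strand was found in 8 of 27 MRTF-SRF targets with a window (29.6%), against 1.66% of analysed genes. Smtn held none in its window and Srf, Vcl and Myl9 did, with direct differences of -0.42, 0.64 and -0.54. Among the 153 lower genes, 7 of 121 with a window held a CArG box (5.79%), 20 the C/EBP word (16.5%) and 11 the interferon response element (9.09%). Over analysed genes these shares were 1.66%, 9.76% and 3.58%. Among the 51 higher genes, 0 of 36 with a window held a CArG box, 5 the C/EBP word (13.9%) and 1 the interferon response element (2.78%).

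Cholesterol synthesis enzymes were lower by the difference of differences in nearly every member. Of 17 genes, 16 were below 0 and 6 at least 2-fold lower, with a median of -0.56. Over all genes the shares were 49.2% and 2.22%. Directly 13 of the 17 were below 0 (49.7% of all genes), none reached 2-fold and the median was -0.30. Control siRNA stood above DMSO in 16 of the 17, by a median of 0.21 and at least 2-fold in 3, which enters the difference of differences. Msmo1, a sterol C4 oxidase, stood at 10.00, 9.91, 10.55 and 9.08 (-0.83 and -1.38). Cyp51, the lanosterol demethylase, stood at 8.99, 8.91, 9.20 and 8.04 (-0.87 and -1.08), and Fdps, which makes farnesyl diphosphate, at 9.50, 9.55, 10.03 and 8.97 (-0.58 and -1.11). The DMSO and Y-27632 arrays were close in all 3 genes, Control siRNA was the highest and Mkl1 siRNA the lowest. When probe sets were averaged, each of the 3 was under 2-fold by the difference of differences. Hsd17b7, a sterol ketoreductase, had the lowest difference of differences, -1.98, at 8.65, 9.23, 10.84 and 9.43, with Control siRNA standing 2.19 above DMSO. Its 4 probe sets ran from -1.98 to -0.11 by that measure. Dhcr7, which catalyses the last step, was the 1 member above 0, at 7.04, 7.57, 7.25 and 8.19 (0.63 and 0.42).

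The Msmo1 promoter is shown because every cholesterol gene with a window held the word CCAAT, the NF-Y site that accompanies sterol regulation. It lies at chr8:64733529-64733828, minus strand (GRCm38.p6), and capitals mark 3 copies, 160, 96 and 55 bases before the start.
Msmo1: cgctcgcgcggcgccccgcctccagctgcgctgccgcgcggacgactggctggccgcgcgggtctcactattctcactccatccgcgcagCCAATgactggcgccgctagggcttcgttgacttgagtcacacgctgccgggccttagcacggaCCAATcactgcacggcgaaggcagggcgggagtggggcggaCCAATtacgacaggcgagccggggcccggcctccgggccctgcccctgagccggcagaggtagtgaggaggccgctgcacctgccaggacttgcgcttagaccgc
CCAAT on either strand was present in 14 of 14 cholesterol genes with a window and in 43.0% of analysed genes. The sterol regulatory word TCACNCCAC was present in 1 of the 14 (7.14%), against 1.39%. Fatty acid synthesis genes did not move in the same way, with medians of 0.09 and -0.03 over 14 genes. The exception was Elovl6, the elongase of palmitate, at 8.76, 9.59, 8.23 and 7.29 (-2.30 and -1.77), although another of its probe sets differed by -0.17.

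In the interferon, amino acid stress and BMP lists the direct difference came together with a difference between the control arrays. Of 31 interferon-response genes, 29 were below 0 directly and 8 were at least 2-fold lower, with a median of -0.58. Over all genes 49.7% and 2.75% were. By the difference of differences 14 of the 31 were below 0 (49.2% of all genes). At least 2-fold, 2 were higher (0.871%) and 4 lower (2.22%), and the median of the 31 was 0.08. Control siRNA was below DMSO by a median of -0.76 in the same genes. Rsad2 (viperin), an antiviral radical enzyme, stood at 11.80, 11.27, 10.47 and 8.81 and was lower by both measures (-2.46 and -1.13). Ifit3, an RNA-binding antiviral protein, stood at 13.32, 12.49, 12.59 and 10.74 (-1.75 and -1.03). Mx1, an antiviral GTPase, stood at 8.46, 7.94, 6.61 and 5.63, lower directly by -2.31 and by only -0.46 in the difference of differences.

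The Rsad2 promoter is shown because Rsad2 had the lowest direct difference of the interferon list. Gbp2 was the lowest by the difference of differences (-1.19). It lies at chr12:26456403-26456702, minus strand (GRCm38.p6), and capitals mark the interferon response element, 120 bases before the start.
Rsad2: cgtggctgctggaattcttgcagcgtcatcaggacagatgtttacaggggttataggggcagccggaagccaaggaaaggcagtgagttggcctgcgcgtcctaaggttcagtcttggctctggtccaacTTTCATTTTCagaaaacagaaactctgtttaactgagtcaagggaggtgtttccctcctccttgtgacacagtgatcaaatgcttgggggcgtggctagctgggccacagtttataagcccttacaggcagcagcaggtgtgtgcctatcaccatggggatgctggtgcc
That element was present in 11 of 21 interferon-response genes with a window (52.4%), against 3.58% of analysed genes. Rsad2, Ifit3 and Gbp2, which were lower by the difference of differences, held it, and so did Oas1a and Oas3, which were higher by 1.04 and 1.05.

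Among 19 ATF4 and amino acid stress genes, 7 were at least 2-fold lower directly (2.75% of all genes) and the median was -0.73. Their median difference of differences was 0.18 with none lower, and Control siRNA was below DMSO by a median of -1.03. Trib3, a pseudokinase of the stress response, stood at 10.64, 10.44, 8.54 and 8.35, a direct difference of -2.09 and a difference of differences of 0.00. Cth, which makes cysteine, stood at 9.47, 9.52, 6.76 and 8.89, so it was low on the Control siRNA array and its difference of differences was 2.08. Among 23 TGF-beta and BMP genes, 8 were at least 2-fold higher directly (1.24% of all genes), with a median of 0.23. By the difference of differences 1 was (0.871%), with a median of -0.11. The BMP target Id3 stood at 9.99, 10.37, 11.66 and 12.07, with both siRNA arrays high (1.70 and 0.03). Follistatin (Fst), which binds activin, was the 1 gene higher by both measures, at 8.83, 8.28, 9.65 and 10.41 (2.13 and 1.30). Tgfbi, a TGF-beta-induced matrix protein, was lower by both, at 10.26, 11.21, 10.55 and 10.04 (-1.17 and -1.47).

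Genes past 2-fold by only the direct difference numbered 166 lower and 93 higher. In 59 and 33 of these, Control siRNA differed from DMSO by at least 2-fold the same way. Plac8, a small cysteine-rich protein, stood at 11.42, 11.33, 8.11 and 7.27 (-4.06 and -0.75), and the ferritin receptor Scara5 at 10.14, 11.34, 6.62 and 7.55 (-3.79 and -0.26). Igfbp4, which binds insulin-like growth factors, stood at 9.60, 10.44, 6.89 and 7.40 (-3.04 and -0.33). In these genes both siRNA arrays were low, whatever the siRNA. Syt13 differed by -3.21 and -0.36, Gap43 by -2.76 and -0.55 and Plxnc1 by -2.57 and -0.19. The 6 probe sets of Plxnc1 ran from -2.57 to 0.07 directly, those of Igfbp4 from -3.49 to -0.20 and those of Scara5 from -3.79 to -0.51. In the other direction, osteoprotegerin (Tnfrsf11b), the decoy receptor for RANKL, stood at 3.31, 3.27, 6.64 and 6.78 (3.51 and 0.18), and the lubricant proteoglycan Prg4 at 5.53, 6.55, 8.82 and 10.03 (3.48 and 0.18). Car8, Ces1g, Cxcl14 and Emb had direct differences of 3.16, 3.0, 2.71 and 2.32 and differences of differences of -0.24, -0.29, 0.43 and 0.15. Directly, the probe sets of Emb ran from -0.06 to 2.32, those of Tnfrsf11b from 0.32 to 3.51 and those of Car8 from 0.38 to 3.16.

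Genes past 2-fold by only the difference of differences numbered 104 lower and 50 higher. Wfdc17, a secreted protein with a protease-inhibitor fold, stood at 7.31, 8.23, 9.20 and 7.62 (-0.61 and -2.50), and S100a5, a calcium-binding protein, at 5.55, 5.79, 6.71 and 5.14 (-0.65 and -1.81). Aldh1a7, an aldehyde dehydrogenase, stood at 10.84, 12.06, 8.48 and 12.62 (0.57 and 2.92). Ptchd4 stood at 7.94, 6.48, 6.58 and 7.06 (0.59 and 1.94), and Clca3a1 at 6.39, 5.22, 3.97 and 4.63 (-0.59 and 1.83). These genes were picked as under 2-fold apart directly and far apart by the difference of differences. That the Control siRNA array was apart from DMSO by more than 2-fold in each therefore largely follows from the choice.

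**Figure D3:**
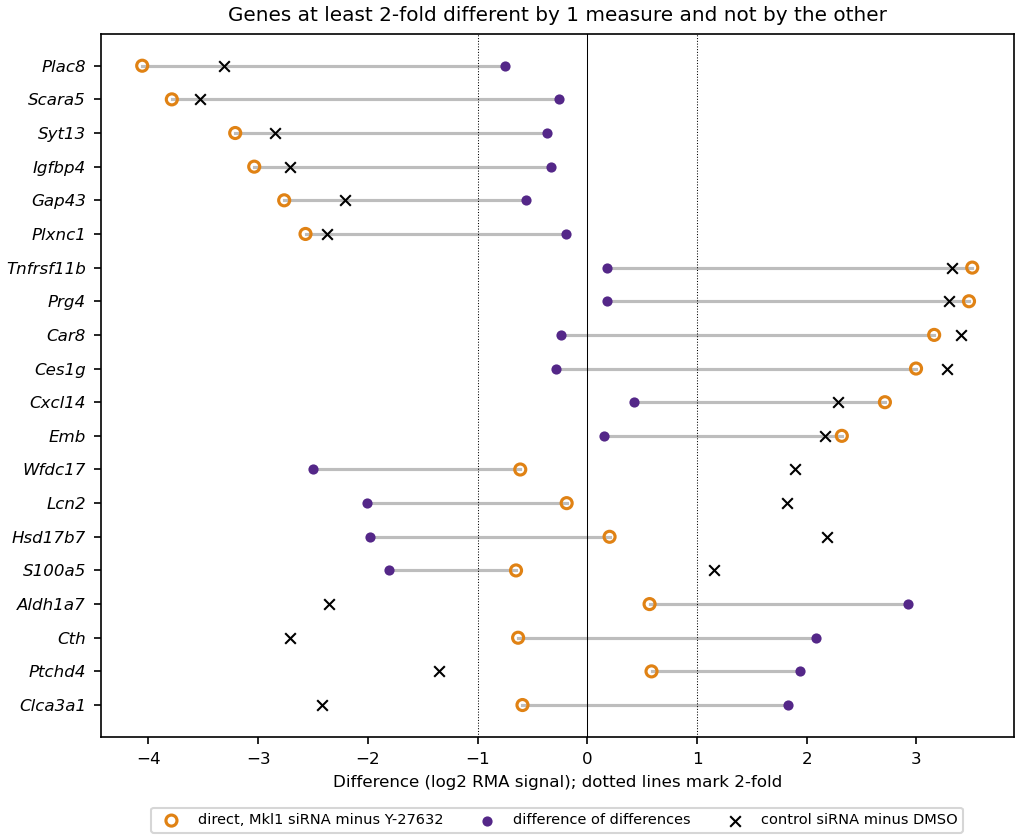
The 20 genes furthest from 0 by only the direct difference or only the difference of differences (y axis), with both measures and Control siRNA minus DMSO in log2 RMA signal (x axis). For Plac8 to Emb the cross of the control difference lies near the direct difference and the filled point lies within 2-fold of 0; for Wfdc17 to Clca3a1 the open circle lies within 2-fold of 0.

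Cell cycle genes were lower directly in mitosis and not in S phase. All 29 G2 and mitosis genes were below 0 directly, from -0.96 to -0.06, with a median of -0.66 and none at least 2-fold. By the difference of differences 24 were below 0, with a median of -0.25. Of all genes, 49.7% were below 0 directly and 49.2% by the difference of differences. Control siRNA was below DMSO in 28 of the 29, by a median of -0.41, which enters the direct difference. Cyclin B2 (Ccnb2), which activates the mitotic kinase, stood at 9.46, 9.01, 9.09 and 8.05 (-0.96 and -0.59), and the cytokinesis kinesin Kif23 at 8.36, 7.99, 8.23 and 7.20 (-0.80 and -0.66). For both the Mkl1 siRNA array was the lowest and DMSO the highest. The 27 S phase genes had medians of 0.01 and 0.30, and none reached 2-fold. Control siRNA was below DMSO in 23 of these 27, by a median of -0.25. Rrm2, the small subunit of ribonucleotide reductase, stood at 10.54, 9.96, 10.71 and 10.92 (0.96 and 0.79), so here the Y-27632 array was the lowest. Cdk6, a G1 kinase, stood at 7.88, 8.01, 7.84 and 9.06 (1.04 and 1.08), and its partner Ccnd2 (cyclin D2) at 13.04, 13.11, 13.47 and 12.35 (-0.76 and -1.18). When probe sets were averaged, Cdk6 was under 2-fold by both measures.

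**Figure D4:**
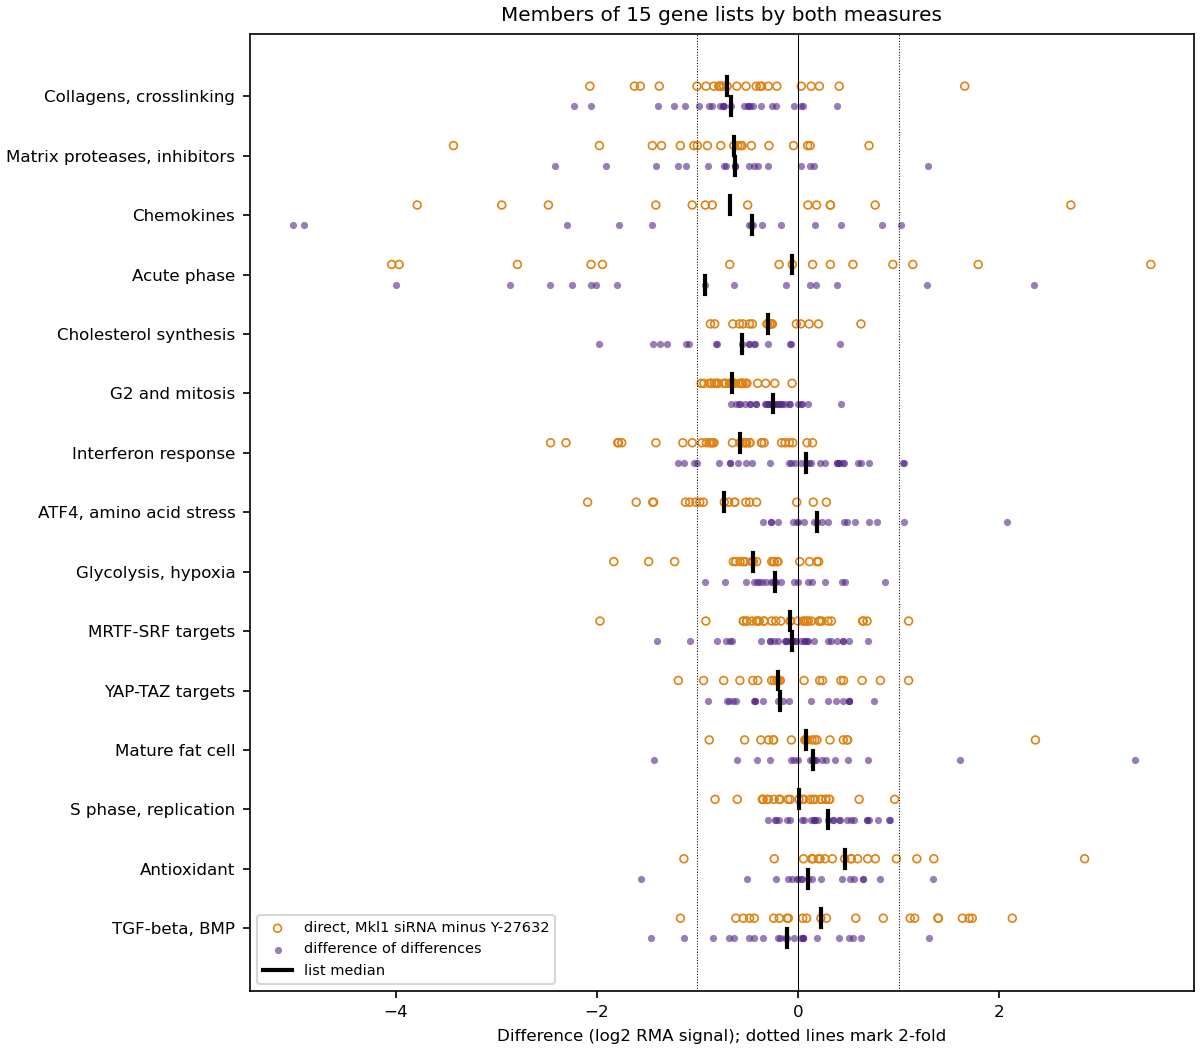
Members of 15 gene lists (y axis) by the direct difference (open circles) and the difference of differences (filled points), in log2 RMA signal (x axis), with black bars for list medians and dotted lines at 2-fold. Collagens and proteases lie left of 0 by both measures (medians -0.71 and -0.67, -0.64 and -0.62), the ATF4 list only by the direct difference (-0.73 against 0.18), and MRTF-SRF targets and mature fat cell genes centre on 0.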

How the data were processed

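Total RNA of mouse DFAT cells was measured on 4 single-colour Affymetrix arrays, 1 a group, grouped by their titles. The authors deposited log2 values from RMA, per the submitters' processing notes. The version of RMA and the chip definition were not given in the sources used here. RMA equalises the distributions of the arrays (medians 5.67 to 5.71), so a difference in total RNA per cell is not seen, and it compresses differences of dim probe sets.

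The platform table named 1 gene for 34958 of 45101 probe sets, several for 932 and none for 9211, and 64 were controls. Symbols of 34741 were brought up to date through a RefSeq gene table (GRCm38.p6, names only) and 204 kept the platform symbol. Each gene took its probe set with the highest mean, and 11600 of 18193 genes were kept whose highest array reached 5.69. Genes were counted from 2-fold. No test was possible with 1 array a group, so no p-value is given. Calculations used Python 3.11.15, numpy 2.4.6, pandas 2.3.3 and statsmodels 0.14.6 and were tested on simulated data.

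Both measures, the 37 gene lists and the 8 marker lists were chosen with earlier results of these data known. Named genes were the 12 lowest and 12 highest by the smaller of both measures with no more probe sets against than for, the 6 lowest and 6 highest by the direct difference alone, the 4 lowest and 4 highest by the difference of differences alone, all with opposite differences from their controls, up to 5 of each list, and Mrtfa, Mrtfb, Srf, Rock1, Rock2, Pparg, Cebpa, Adipoq, Fabp4, Acta2, Tagln, Ccn2 and Actb. Hp, Il1rn, Dhcr7, Col12a1, Mx1, Oas1a, Oas3, Trib3, Id3, Vcl, Nox4 and Cp were named after their values were seen. The results were recomputed with probe sets averaged, with cross-binding probe sets left out, with the low-value filter dropped or raised to the 75th percentile (8.08), with a loess curve (span 0.3) or the median taken off each difference, and with thresholds of 1.5-fold and of the control difference's 99th percentile. Motifs were searched on both strands in RefSeq promoter windows, which 9356 analysed genes had.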

Additional observations from a re-analysis of the deposited data

Results flagged for a closer look

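The 11 genes that stood at least 2-fold from their own control in opposite directions, lower with Mkl1 siRNA and higher with Y-27632, had these differences of differences: Ccl11 -5.03, Mgp -4.46, Saa1 -4.00, Cd34 -3.62, F13a1 -3.58, Acpp -3.48, Il33 -2.86, Sema7a -2.69, Egr2 -2.58, Clec14a -2.50 and Saa2 -2.06. With 1 array a group the difference between the treatments was not tested. Cd34 passed the filter only through the Y-27632 array, where it was high. The list joins an apolipoprotein pair, a chemokine, an alarmin, a calcification inhibitor and a coagulation factor.

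Probe sets with no gene symbol or with several were not used for gene values. At or above the filter value lay 3386 of these, and 69 were at least 2-fold apart by both measures. Of the 69, 23 were lower and 46 higher with Mkl1 siRNA, the reverse balance of the analysed genes (153 lower and 51 higher). Between the control arrays, 65 of the 3386 were at least 2-fold apart.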

How the results depend on the processing

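No paired analysis was possible because each group has 1 array, and no array could be left out. Counts are given as higher and lower with Mkl1 siRNA. From 1.5-fold there were 529 and 932 genes directly, 483 and 819 by the difference of differences and 196 and 489 by both. With the 99th percentile of the control difference (1.32) as threshold there were 76 and 183, 41 and 135, and 22 and 86. With the filter at the 75th percentile there were 94 and 207 directly, 56 higher by the difference of differences and 28 higher by both. All other counts stayed within 1.5 times. With the mean of all probe sets, 7 of 84 named genes past 2-fold directly and 10 of 76 by the difference of differences no longer were, the most of any alternative, and no named gene past 2-fold reversed. The medians of MRTF-SRF and YAP-TAZ targets, the direct medians of chemokines and acute phase genes and those of several lists near 0 changed sign. Signal over background limits the dim genes: of 240 named genes, 20 lie below the filter value on the Mkl1 siRNA array (Saa1, Itih5, Cd34, Fgl2, Rgs13, F13a1 and Lum among them) and 14 on the Y-27632 array (Aox3, Olr1, Fbln7, Clec4d and Tnfrsf11b among them), where differences are compressed.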

Other observations

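Among the lists not described above, the median direct difference and difference of differences were 0.23 and 0.05 over 18 regulators of fat cell formation, -0.17 and -0.44 over 10 genes of sterol uptake and sensing, and -0.09 and -0.22 over 23 integrin and focal adhesion genes. They were 0.30 and 0.21 over 13 heat shock genes, -0.02 and 0.17 over 21 immediate early genes, 0.19 and 0.14 over 13 p53 targets, and 0.33 and 0.07 over 10 retinoid and aldehyde genes. Inhibitors of fat cell formation had medians of -0.06 and 0.01 over 17 genes, with Sox9, the cartilage factor that restrains early commitment, lower at 8.31, 8.66, 8.11 and 7.06 (-1.60 and -1.40) and the Notch target Hes1 at 8.51, 8.76, 8.65 and 7.86 (-0.90 and -1.04). The probe sets of Sox9 ran from -2.08 to 0.17, and their mean was under 2-fold by the difference of differences (-0.94). Among 19 Wnt genes, medians 0.02 and -0.11, the secreted antagonist Sfrp1 stood at 9.29, 9.13, 9.83 and 10.99 (1.87 and 1.32), and the ligand Wnt2 at 4.44, 4.57, 4.52 and 5.82 (1.25 and 1.17). Wnt2 reached the filter value of 5.69 on the Mkl1 siRNA array alone and was analysed only through that array. Dkk2, another antagonist, was lower at 7.55, 8.26, 7.78 and 7.25 (-1.01 and -1.23).

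The mitochondrial lists had medians slightly above 0 by both measures. These were 0.17 and 0.21 over 20 citric acid cycle genes, 0.18 and 0.13 over 21 respiratory chain genes, and 0.27 and 0.14 over 23 fatty acid oxidation and peroxisome genes. At least 2-fold lower by both measures was Cox7a1, the subunit of cytochrome oxidase found in muscle and brown fat, at 6.10, 6.71, 6.33 and 5.14 (-1.57 and -1.80). Ppargc1b, a coactivator of mitochondrial genes, stood at 5.94, 7.79, 5.73 and 8.89 (1.10 and 1.31). Glycolysis and hypoxia genes had medians of -0.44 and -0.23 over 21 genes, with Pdk1, the kinase that restrains pyruvate oxidation, at 10.24, 10.43, 9.14 and 8.60 (-1.83 and -0.73). MHC class I genes had medians of -0.38 and -0.02 over 12 genes and endoplasmic reticulum chaperones -0.22 and -0.26 over 17. The NADPH oxidase gene Nox4 stood at 7.46, 6.78, 9.48 and 7.24 (0.46 and -1.56), with the Control siRNA array 2.02 above DMSO. Ceruloplasmin (Cp), the copper-carrying ferroxidase, stood at 8.29, 9.69, 7.16 and 7.63 (-2.06 and -0.93).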
